A study of Mus musculus with 14 samples.

Results

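Tissue of origin was compared across all measured genes in cultures that grew out of pieces of wild-type mouse skin or wild-type mouse lung. The members were the libraries that the labels title as wild-type dermal or lung fibroblasts, 7 of the 14 in the series: 2 from skin (numbered 11 and 22) and 5 from lung (1, 23, 3, 4 and 5). The other 7 came from cultures labelled Rel-null, 4 from lung and 3 from skin. The labels describe male C57BL/6J mice aged 8 to 10 weeks. Pieces of dorsal skin of 1 mm3 were left to adhere and were taken out of the dish on day 7, whereas lung was chopped into pieces of about 5 mm, and for lung the labels name no removal of the tissue. Both kinds of culture grew unstimulated on plastic in medium with serum, were harvested at day 14 by scraping, and were read as total RNA with a directional library kit. No sorting step is described, so a library holds RNA of whatever cells lay in the dish. Nothing in the labels ties a library to an animal. The p-values therefore rest on the spread seen among these libraries, which may be technical.

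Fibroblasts make the collagens and other matrix proteins of connective tissue. They are known to keep a record of where in the body they arose, held in large part by the HOX genes, transcription factors that lie in clusters and are switched on in order along the body axis, and by other developmental regulators such as the T-box factors of lung mesenchyme and the Twist and Zic factors of dermis. Explant cultures also carry other cells of the tissue for a time, among them macrophages, which adhere to plastic, and in skin keratinocytes, nerve sheath cells, fat cells and fibres of the thin muscle sheet under the dermis.

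Levels are given in CPM, the usual unit of counts scaled for library depth, on library totals scaled by edgeR's TMM factors, and sums over a list, Xist, Ddx3y and Rel on raw totals. Lung libraries held 18897160 to 30987933 counts, skin 11 held 23236280 and skin 22 held 2663437. Some libraries stood apart. Of the genes averaging at least 5 CPM over the remaining libraries from that tissue, 8.22% had 0 counts in skin 11 and 5.78% in lung 4, against at most 0.728% in the other 5 wild-type libraries. Xist, which coats and silences 1 X chromosome in females, read 64.5 CPM in lung 1 and 732 CPM in skin 22, which goes against the male label, and the Y-linked gene Ddx3y read 0 and 1.13 CPM there. Pearson r across genes was 0.849 to 0.982 between lung libraries, 0.85 between the skin pair and 0.77 to 0.864 between a lung and a skin library. Fibroblast markers were read in every wild-type library, and the summed level of 12 of them was 30920 to 133100 CPM in lung and 22840 and 40590 CPM in skin 11 and 22. The sum includes the highly read collagens Col1a1 and Col3a1, and it does not tell what share of the cells were fibroblasts. Pdgfrb, a receptor found on fibroblasts and pericytes, read 1070, 409, 414, 469 and 653 CPM in lung 1, 23, 3, 4 and 5, and 1141 and 868 CPM in skin 11 and 22. Rel itself read 1.10 to 17.3 CPM in lung and 11.5 and 10.9 CPM in skin, and its log2 fold change was -0.02 ± 1.5 (SE; adjusted p = 1).

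Skin and lung cultures differed at 487 of 16408 genes tested, 148 higher and 339 lower in skin than in lung. These are 0.902% and 2.07% of the genes tested, by edgeR's quasi-likelihood test at a Benjamini-Hochberg adjusted p under 0.05. An unadjusted p under 0.05 was reached by 2167 genes. The median log2 fold change (skin minus lung) was -0.13 over all genes, 4.22 over the higher calls and -6.49 over the lower calls. Many calls were of genes nearly unread in 1 tissue: 65 of the 148 higher genes had a lung mean under 1 CPM and 148 of the 339 lower genes had a skin mean under 1 CPM. Skin lay above or below every lung library, with no overlap, for 126 of the 148 and for 338 of the 339, beside 7.12% of all genes tested with skin above and 10.7% with skin below. In the fit without skin 11 there were 87 higher and 171 lower calls, of which 67 and 135 were among the 148 and 339. Without skin 22 there were 204 and 846, of which 100 and 254 were among them, and the median of all genes was -0.81. In both of these fits 31 higher and 109 lower genes remained called. DESeq2 kept 138 of the 148 and all 339, whereas limma-voom with quality weights, which called 172 higher and 489 lower, kept 90 and 57.

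**Figure D1:**
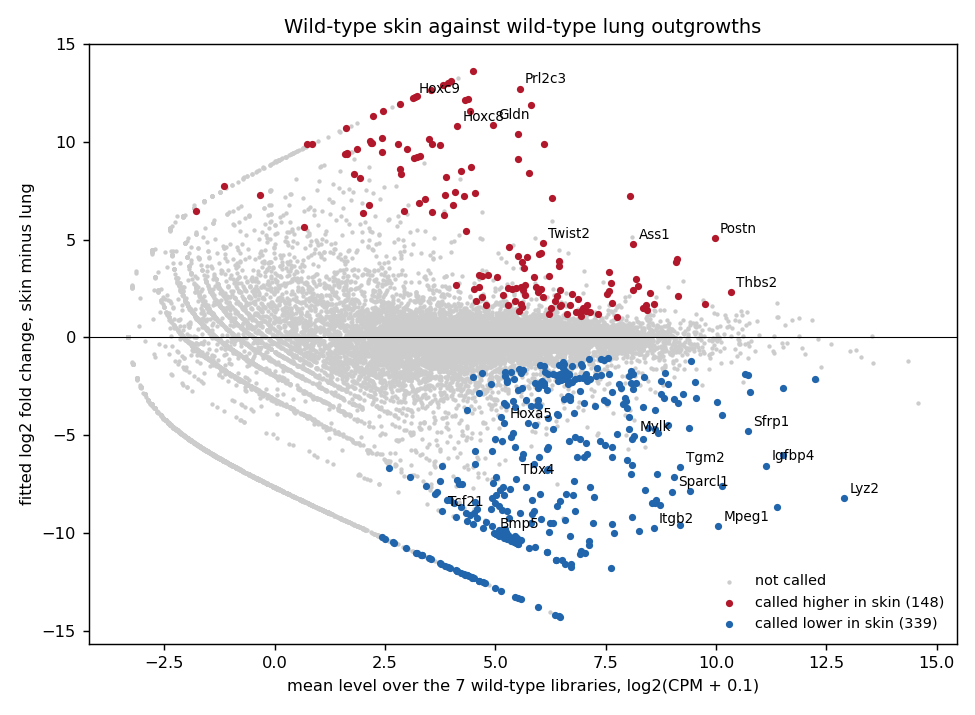
Fitted log2 fold change (skin minus lung) against the mean level over the 7 wild-type libraries in log2(CPM + 0.1), with 1 point per gene tested, red where called higher in skin and blue where called lower. The 148 higher and 339 lower calls reach from low to high levels. Their median log2 fold changes are 4.22 and -6.49, beside -0.13 over all genes. Some calls lie nearer to 0, such as H2-T22 at 1.60 and Basp1 at -1.03.

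The gene with the smallest p among those higher in skin was Prl2c3, and another proliferin, Prl2c2, was among the 12 with the smallest p. Proliferins are secreted hormones of the prolactin family that are best known from the placenta. Prl2c3 (ENSMUSG00000056457, GRCm38 chromosome 13, 12790816-12800079, minus strand) read 179 and 147 CPM in skin 11 and 22, 0.103 CPM in lung 23 and 0 in the other 4 lung libraries. With 2 counts over all lung libraries and 4689 over skin, the pooled ratio was 9920, with a 95% exact counting interval of 2740 to 81900, and the fitted log2 fold change was 12.71 ± 0.84 (SE; adjusted p = 2.59e-05). Prl2c2 read 182 and 138 CPM in skin, 0.618 CPM in lung 23 and 0 in the rest (10.38 ± 1.22, adjusted p = 0.000599). Prl2c5 had 0 counts in every lung library and 4.62 and 6.08 CPM in skin, at least 180-fold higher, and was not called (adjusted p = 0.0716). The copies are alike: 69.2% of the 50-base windows of the Prl2c3 transcript occur in Prl2c2 and 12.9% in Prl2c5, so the split of reads between them is uncertain. The promoter reference had no entry for Prl2c2, and whether upstream sequence bears on the levels was not tested. Upstream sequences are therefore shown for Prl2c3 and for Prl2c5, which was not called and read far lower in skin. These are the 250 bases before the gene start in RefSeq on build GRCm38.p6, at chr13:12800080-12800329 (minus strand) for Prl2c3 and chr13:13182466-13182715 (plus strand) for Prl2c5. Capitals mark bases that differ or have no partner in a gapped alignment, in which 241 of 251 columns were identical (96.0%), with 8 mismatches and 2 gapped columns.
Prl2c3: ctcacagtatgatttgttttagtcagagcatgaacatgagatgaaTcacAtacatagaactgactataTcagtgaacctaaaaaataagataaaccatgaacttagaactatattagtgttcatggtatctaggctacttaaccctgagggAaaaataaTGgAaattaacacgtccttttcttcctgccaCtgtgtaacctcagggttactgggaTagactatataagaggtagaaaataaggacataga
Prl2c5: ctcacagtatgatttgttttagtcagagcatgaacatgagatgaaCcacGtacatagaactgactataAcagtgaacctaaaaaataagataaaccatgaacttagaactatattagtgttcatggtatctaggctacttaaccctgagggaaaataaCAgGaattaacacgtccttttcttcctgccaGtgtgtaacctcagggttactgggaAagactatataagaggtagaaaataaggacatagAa

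Other higher genes with small p-values encode enzymes, secreted proteins and regulators of connective tissue. Ass1, the enzyme that makes argininosuccinate in arginine synthesis (chromosome 2, 31470207-31520672), read 31.8, 27.2, 18.4, 46.6 and 38.4 CPM in lung 1, 23, 3, 4 and 5, and 1531 and 253 CPM in skin 11 and 22 (4.78 ± 0.55, adjusted p = 0.000244). Angptl2, a secreted angiopoietin-like protein, read 108 to 149 CPM in lung and 715 and 621 CPM in skin (2.43 ± 0.36, adjusted p = 0.00146). Ebf1, a transcription factor of B cells, fat cells and stromal cells, read 8.96 to 30.9 CPM in lung and 157 and 101 CPM in skin (2.69 ± 0.41, adjusted p = 0.00161). For Angptl2 and Ebf1 the skin pair lay close together, and the calls of Ass1, Angptl2 and Ebf1 remained without either skin library. Lrrc15, a membrane protein of activated fibroblasts, read 8.05 and 130 CPM in skin with 1 count over all lung libraries (12.13 ± 1.36, adjusted p = 0.000199). Gldn, encoding gliomedin, which gathers sodium channels at nodes of nerve fibres, read at most 0.138 CPM in lung and 59.7 and 154 CPM in skin (10.87 ± 1.08, adjusted p = 0.000244). Postn, the matrix protein periostin, read 65.8 to 131 CPM in lung, 433 CPM in skin 11 and 6085 CPM in skin 22 (5.07 ± 0.77, adjusted p = 0.00160). Its size rested on skin 22, without which it was 2.16 (adjusted p = 0.0869). The kinase gene Nuak1 rose by 2.42 ± 0.37 (adjusted p = 0.00160), a call that ended without skin 11 (1.93, adjusted p = 0.0501). The giant muscle protein gene Ttn (9.85 ± 1.36), the keratin gene Krt14 (10.05 ± 1.03) and Hoxc8 (10.81 ± 1.45) complete the 12 genes and are described with their groups. An exact permutation test of a single gene over 2 against 5 libraries cannot pass 0.05, since the 21 splits allow no two-sided p below 0.0952, the value reached by Prl2c3, Hoxc8, Twist2, Tgm2 and Igfbp4.

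Of the 12 genes with the smallest p among those lower in skin, most belong to macrophages and other myeloid cells and are described with the leukocyte markers. Tgm2, tissue transglutaminase, which cross-links matrix proteins (chromosome 2, 158116402-158146436), read 1364, 310, 985, 432 and 984 CPM in lung 1, 23, 3, 4 and 5, and 8.05 and 8.32 CPM in skin 11 and 22. It was lower by a log2 fold change of -6.64 ± 0.68 (adjusted p = 0.000145). Icam1, an adhesion molecule that leukocytes bind, read 130 to 173 CPM in lung and 11.8 and 8.32 CPM in skin (-3.88 ± 0.43, adjusted p = 0.000165). Skin lay far below lung for both genes, and the skin pair was close together. Both genes are also read in macrophages and other cells, and the part of such cells in these values was not tested. In bulk cultures, fewer cells of a type and less RNA per cell cannot be told apart.

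**Figure D2:**
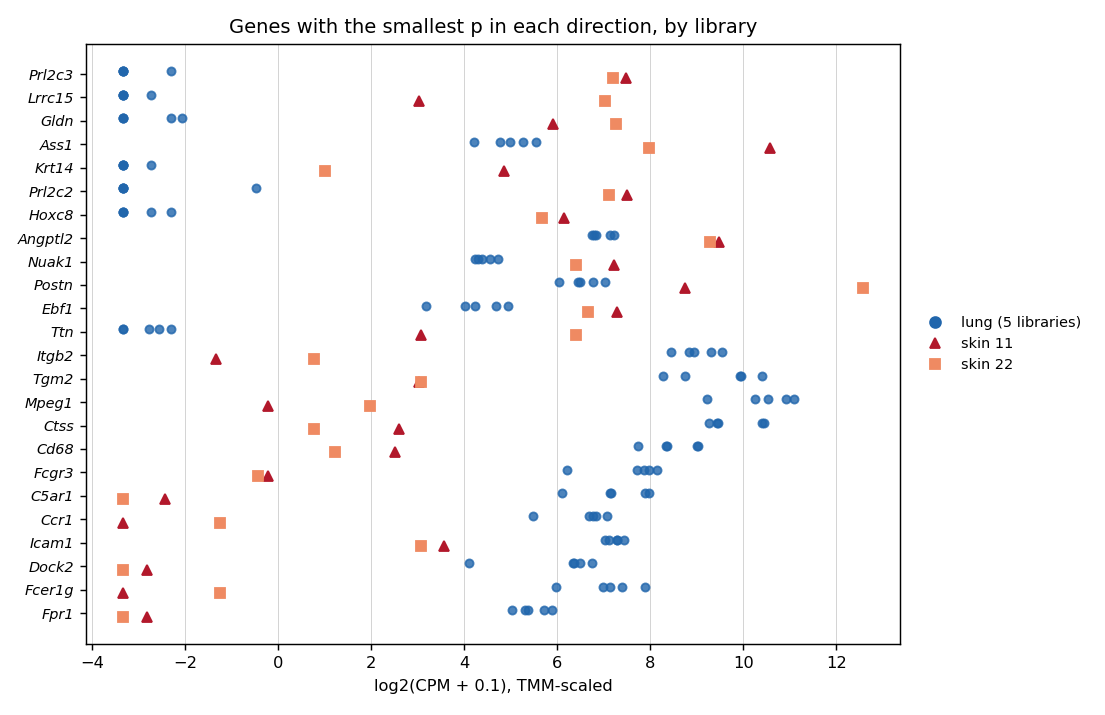
Level of the 12 genes with the smallest p in each direction, in log2(CPM + 0.1) on TMM-scaled totals, for the 5 lung libraries (circles), skin 11 (triangles) and skin 22 (squares). Points at the left edge are 0 CPM. Only genes with no overlap between skin and lung and a mean of at least 10 CPM in the higher group were picked. The lack of overlap is therefore no result. Postn and Lrrc15 lie far apart between the skin pair.

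Leukocyte genes were lower in skin. All 4 genes that define leukocytes as a class (Ptprc, Cd52, Coro1a and Laptm5) were called lower in skin (100%, beside 2.07% of all genes). Their summed level was 391.7 to 1137 CPM in lung, 0.344 CPM in skin 11 and 13.89 CPM in skin 22. Ptprc, the pan-leukocyte antigen CD45, read 20.8, 168, 136, 120 and 147 CPM in lung 1, 23, 3, 4 and 5, and 0.127 and 0.960 CPM in skin 11 and 22 (-8.62 ± 1.21, adjusted p = 0.000974). Cd52 had 0 counts in both skin libraries and was at least 565-fold lower (adjusted p = 0.000710). Lung 1 had the lowest Ptprc of the lung libraries, and even that lay far above both skin libraries. The call of Coro1a ended without skin 11 (adjusted p = 0.0560), and those of Ptprc, Cd52 and Laptm5 were kept in every fit that left out 1 wild-type library.

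Among macrophage markers, 18 of 23 tested were lower in skin and 0 higher, beside 2.07% and 0.902% of all genes. The list's median log2 fold change was -8.55, or -8.22 when each gene with no count in 1 tissue was given its lower bound instead. The summed level was 6020 CPM in lung 1, 17050 to 24100 CPM in the other lung libraries, and 904 and 458.4 CPM in skin 11 and 22. Mpeg1, the pore-forming perforin-2 of macrophages (chromosome 19, 12460779-12465283), read 597, 1494, 1925, 1220 and 2185 CPM in lung and 0.763 and 3.84 CPM in skin (-9.65 ± 1.00, adjusted p = 0.000145). Lysozyme, Lyz2, read 4000.5 to 15516 CPM in lung and 55.9 and 15.04 CPM in skin (-8.22 ± 0.96, adjusted p = 0.000244). Adgre1, which encodes the macrophage antigen F4/80, read 53.4, 273, 408, 245 and 398 CPM in lung, 0.0847 CPM in skin 11 and 0 in skin 22 (-11.77 ± 1.99, adjusted p = 0.00307). The myeloid integrin chain Itgb2 (-9.74 ± 0.95), the complement receptor C5ar1 (-11.06 ± 1.18), the chemokine receptor Ccr1 (-10.99 ± 1.19), the Fc receptor genes Fcgr3 (-8.16 ± 0.87) and Fcer1g (-11.57 ± 1.34), Dock2, which drives leukocyte migration (-10.78 ± 1.25), and the formyl peptide receptor Fpr1 (-10.05 ± 1.08) had adjusted p between 0.000133 and 0.000244. Gpnmb, a lysosomal glycoprotein that macrophages make but not they alone, differed in pattern, with 426 to 2044 CPM in lung and 758 and 342 CPM in skin (-1.28 ± 0.59, adjusted p = 0.364). It made up most of the list's summed level in both skin libraries. The count of lower macrophage markers was 13 without skin 11, 15 without skin 22 and 20 by DESeq2, but 4 by limma-voom with quality weights, and the call of Adgre1 ended without skin 11 (adjusted p = 0.0715).

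The protease Ctss and the lysosomal protein Cd68, both macrophage genes, are shown with their upstream sequence. They were picked as the first by p, among the 12 lower genes named, whose upstream sequence holds the letters GAGGAA. That they hold these letters is therefore no result, and Mpeg1, with the same adjusted p, does not hold them. Ctss read 701, 614, 1348, 696 and 1404 CPM in lung 1, 23, 3, 4 and 5 and 5.97 and 1.60 CPM in skin (-7.84 ± 0.83), and Cd68 read 214, 325, 516, 332 and 522 CPM in lung and 5.59 and 2.24 CPM in skin (-6.50 ± 0.69), each with an adjusted p of 0.000145. Capitals mark GAGGAA, the core bound by the myeloid factor PU.1, searched on both strands in the 250 bases before the RefSeq gene start on GRCm38.p6, at chr3:95526536-95526785 (plus strand) for Ctss and chr11:69666171-69666420 (minus strand) for Cd68. Spi1, which encodes PU.1, read 25.0 to 109 CPM in lung, 0 in skin 11 and 0.320 CPM in skin 22 (-10.21 ± 1.86, adjusted p = 0.00508, but 0.119 without skin 11).
Ctss: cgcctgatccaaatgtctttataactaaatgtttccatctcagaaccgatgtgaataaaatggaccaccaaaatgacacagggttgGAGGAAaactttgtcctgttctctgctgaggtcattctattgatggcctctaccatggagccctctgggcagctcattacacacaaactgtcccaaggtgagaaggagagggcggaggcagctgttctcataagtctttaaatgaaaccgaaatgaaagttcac
Cd68: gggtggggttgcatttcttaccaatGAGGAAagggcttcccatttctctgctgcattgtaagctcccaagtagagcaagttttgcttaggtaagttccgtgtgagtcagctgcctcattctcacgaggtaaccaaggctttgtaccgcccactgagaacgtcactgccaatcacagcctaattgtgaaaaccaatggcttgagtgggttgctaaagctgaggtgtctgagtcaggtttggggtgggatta
These letters occur in 23.3% of all 32851 promoter windows, in 32.0% of 309 windows of genes lower in skin and in 24.5% of 139 windows of genes higher in skin. Of the 12 lower genes with the smallest p, 10 are in the promoter table and 5 of these hold the letters.

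Genes of alveolar macrophages, the resident macrophages of the air spaces, were mixed: 5 of 14 were lower (35.7%, beside 2.07% of all genes) and 0 higher. Itgax, which encodes CD11c, read 75.6 to 182 CPM in lung, 0 in skin 11 and 0.640 CPM in skin 22 (-9.94 ± 1.18, adjusted p = 0.000251). The proton pump subunit Atp6v0d2 (-9.49 ± 1.49), the scavenger receptor Marco (-10.13 ± 2.45), the lipid carrier Fabp5 (-2.38 ± 0.51) and Plet1 (-8.78 ± 2.05) were the other lower genes. The call of Plet1 ended without lung 3, lung 5 or either skin library (adjusted p 0.0505 to 0.253), that of Marco without lung 23, 3, 4 or 5 or either skin library (0.0617 to 0.366), and that of Fabp5 without skin 22 (-1.88, adjusted p = 0.0949). Fabp4 had the opposite sign, with 41.9 to 94.9 CPM in lung, 885 CPM in skin 11 and 8.96 CPM in skin 22. Only 3 of 17 lymphocyte markers were tested, with 0 called and sums of 3.41 to 15.1 CPM in lung, 0 in skin 11 and 1.13 CPM in skin 22.

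The skin pair differed in the levels of markers of other cell types. Cell content was not measured, and skin 11 had 0 counts for 8.22% of genes read at 5 CPM or more in the other skin libraries. Of 20 skeletal muscle markers tested, 11 were higher in skin (55%, beside 0.902% of all genes) and 0 lower, and the median log2 fold change was 9.29, or 8.30 with bounds. Their summed level was 22.83 to 118.9 CPM in lung, 126.1 CPM in skin 11 and 2235 CPM in skin 22. Myog, a factor that turns myoblasts into fibres, had 0 counts in lung and 6.36 and 31.4 CPM in skin 11 and 22, at least 350-fold higher (adjusted p = 0.00520). Its partner Myod1 also had 0 counts in lung and read 5.72 and 15.04 CPM in skin, at least 257-fold higher (adjusted p = 0.00664). Ttn (at most 0.103 CPM in lung, 8.35 and 84.5 CPM in skin), the troponin gene Tnnc2 (14.96 and 46.4 CPM in skin) and the myosin light chain gene Mylpf (7.80 and 122 CPM in skin) were higher as well. The embryonic myosin Myh3 was read in skin 22 alone of the skin pair, at 145 CPM, and its log2 fold change was 12.21 ± 2.18 with it and -1.35 without it. Skin 22 thus held most of the muscle signal, and without it 5 of the 20 genes were called, without skin 11 it was 13, and 6 to 7 without a lung library.

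Some markers on a list of Schwann cells, which wrap nerve fibres, and melanocytes followed the same library. The melanocyte genes Tyr, Tyrp1 and Dct, below the filter, read 0 CPM in every wild-type library. Of 14 tested, 3 were higher (21.4%, beside 0.902% of all genes) and 1 lower (7.14%, beside 2.07%). The nerve growth factor receptor Ngfr and the cadherin Cdh19 read 394 and 150 CPM in skin 22, 0 in skin 11 and at most 0.206 CPM in lung, with log2 fold changes of 11.88 ± 2.05 and 11.56 ± 2.19 that turned to -3.20 and -2.14 without skin 22. Sox10, the defining factor of these lineages, read 72.0 CPM in skin 22 and 0 in skin 11 (adjusted p = 0.0713). Mbp, a myelin gene that other cells read too, was lower (23.8 to 43.9 CPM in lung, 6.65 and 1.92 CPM in skin, adjusted p = 0.0161), a call that ended without skin 22 (-2.29, adjusted p = 0.0708). No Schwann cell or melanocyte marker was called in the fit without skin 22.

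Keratinocyte and fat markers leaned towards skin 11. Of 23 keratinocyte markers tested, 5 were higher (21.7%, beside 0.902% of all genes) and 0 lower (median 2.04, 0.00 with bounds), and their sum was 23.07 to 53.77 CPM in lung, 97.82 CPM in skin 11 and 60.82 CPM in skin 22. Krt14, a keratin of basal keratinocytes (chromosome 11, 100203162-100207548), read 28.8 and 1.92 CPM in skin, with 1 count over all lung libraries. Krt6a (9.96 and 0.960 CPM) and Krt5 (0.381 and 0.960 CPM) had 0 counts in lung and were at least 206-fold and 16.9-fold higher, with adjusted p of 0.00282 and 0.0199 that rose to 0.0787 and 0.0844 without skin 11. Krt14 remained called without either skin library, but not by limma-voom, which called 0 keratinocyte markers. Levels were thus low in both skin cultures. Among 9 fat cell markers, Plin4, a lipid droplet coat protein, was the 1 called, at 141 CPM in skin 11, 9.28 CPM in skin 22 and at most 0.773 CPM in lung (8.70 ± 1.93, adjusted p = 0.0206). That is 11.1% of the list, beside 0.902% of all genes. Below the filter, the fat cell genes Adipoq and Plin1 read 37.5 and 131 CPM in skin 11, 0 and 0.375 CPM in skin 22 and 0 in lung. The Plin4 call ended without lung 3 (adjusted p = 0.0646), lung 5 (0.0609) or skin 11 (5.65, 0.520).

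Endothelial, epithelial and mesothelial genes gave few calls. All 19 endothelial markers were lower in value in skin (median -5.47, -4.16 with bounds) and 0 were called, with sums of 93.25 to 282.5 CPM in lung and 33.4 and 34.17 CPM in skin. Of 17 lung epithelial markers, Napsa, a protease that processes surfactant protein B, was called, with 5.86 to 10.7 CPM in lung and 0 counts in skin, at least 67.8-fold lower (adjusted p = 0.0298). This 1 call is 5.88% of the list, beside 2.07% of all genes called lower. The Napsa call ended without lung 23, 3 or 5 (adjusted p 0.05 to 0.0595) or skin 11 (0.278). Pdpn, a membrane protein of flat alveolar cells that fibroblasts read too, set the list's sum, with 225 to 375 CPM in lung and 1118 and 274 CPM in skin (adjusted p = 0.0767). The surfactant gene Sftpc read 6.41, 76.6, 9.92, 132 and 2.09 CPM in lung 1, 23, 3, 4 and 5 and 0 in skin, at least 401-fold lower and not called (adjusted p = 0.102). Mesothelial markers were called at 0 of 11 (median -7.08), and Upk3b read 102 and 84.8 CPM in lung 1 and 3 and 0 to 11.99 CPM in the other lung libraries. Of 10 pericyte markers 0 were called.

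**Figure D3:**
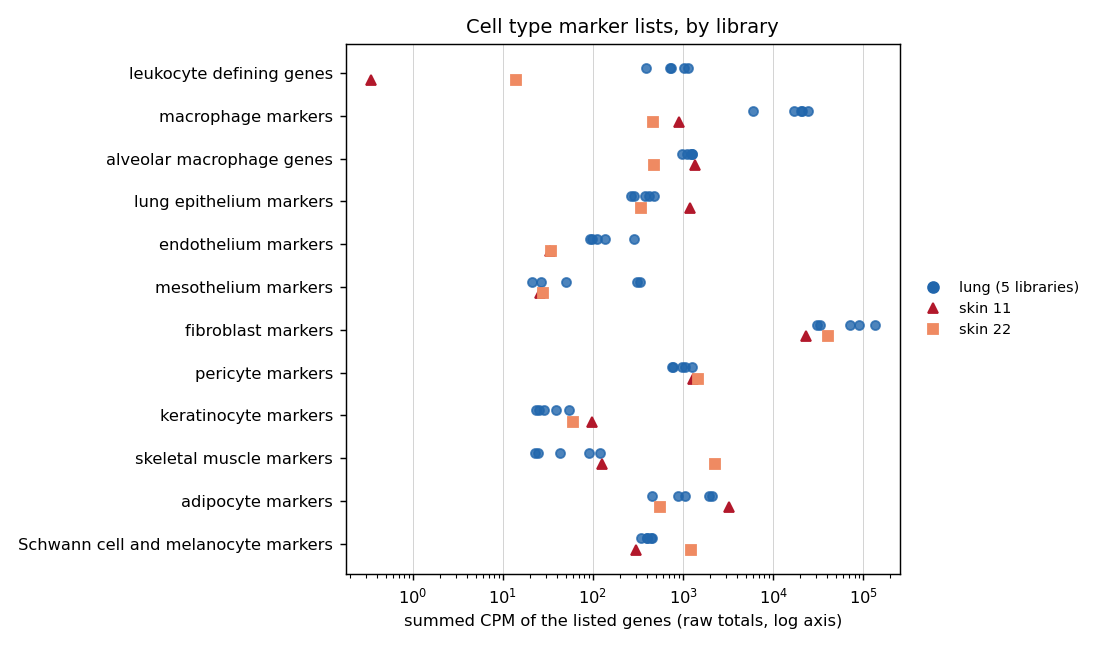
Summed level of each marker list in CPM of raw library totals, on a log axis, for the 5 lung libraries (circles), skin 11 (triangles) and skin 22 (squares). Leukocyte sums of 391.7 to 1137 CPM in lung stand against 0.344 and 13.89 CPM in skin, and the muscle sum of 2235 CPM in skin 22 stands apart from 126.1 CPM in skin 11.

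Among the HOX genes, 3 of the HOXC cluster were higher in skin and Hoxa5 was lower. Of 39 HOX genes, 26 passed the filter, 3 were higher in skin and 1 lower, beside 0.902% and 2.07% of all genes, and their median log2 fold change was -0.82. The 3 higher genes are neighbours within the HOXC cluster on chromosome 15, Hoxc9 at 102976439-102985099, Hoxc8 at 102990607-102994111 and Hoxc6 at 102998257-103011881, all on the plus strand. Hoxc8 read 70.9 and 50.9 CPM in skin 11 and 22, 0.103 and 0.0510 CPM in lung 23 and 5, and 0 in the other lung libraries (10.81 ± 1.45, adjusted p = 0.000624). Its pooled ratio, from 3 counts over lung and 1833 over skin, was 2580 with a counting interval of 883 to 12500. Hoxc9 had 0 counts in every lung library and 44.4 and 16.0 CPM in skin, at least 1138-fold higher (adjusted p = 0.00196). Hoxc6 read 59.5 and 40.3 CPM in skin and 0 to 0.876 CPM in lung (7.30 ± 1.45, adjusted p = 0.00953). These 3 genes were read in both skin cultures and were called without either of them.

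The other 6 genes of the cluster were not called or did not pass the filter. Hoxc4 read 14.96 and 9.60 CPM in skin and 1.13 to 2.31 CPM in lung (2.88 ± 1.09, adjusted p = 0.223), and Hoxc5 read 14.3 and 5.44 CPM in skin and 0 to 2.398 CPM in lung (4.07 ± 1.81, adjusted p = 0.333). Hoxc10, at 22.4 CPM, and Hoxa9, at 18.6 CPM, were read in skin 22, with 0 in skin 11 and at most 0.103 CPM in lung. Hoxc13, at the tail end of the cluster, was read in both skin libraries, at 2.20 and 2.88 CPM, with 2 counts over all lung libraries. Hoxc11 had 1 count over the 7 libraries and Hoxc12 had 0, so neither was tested. Hoxb9 also stood highest in skin 22, at 26.6 CPM, against 1.57 CPM in skin 11 and 0 to 4.12 CPM in lung. Hoxd8 was above lung in both, at 11.99 and 26.9 CPM against at most 2.25 CPM (4.04 ± 1.38, adjusted p = 0.160).

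Some genes of the HOXA and HOXB clusters had lower values in skin. Hoxa5, a gene of lung mesenchyme (chromosome 6, 52201754-52204587, minus strand), read 92.7, 41.4, 48.1, 23.2 and 46.0 CPM in lung 1, 23, 3, 4 and 5, and 0.127 and 5.44 CPM in skin (-4.38 ± 1.05, adjusted p = 0.0334). The call of Hoxa5 ended without lung 1, lung 3, lung 5 or skin 11, at adjusted p of 0.0584 to 0.0691. Hoxa3 read 10.6 to 21.4 CPM in lung and 0 and 3.20 CPM in skin (-3.36 ± 1.56, adjusted p = 0.369), and Hoxb5 read 10.4 to 29.9 CPM in lung and 0 and 1.92 CPM in skin (-4.70 ± 1.63, adjusted p = 0.170). Hoxb2, Hoxb3 and Hoxb4 were read in every library of both tissues, with log2 fold changes of -1.02 ± 0.73, -0.71 ± 0.78 and -1.69 ± 0.62. Ranges of skin and lung did not overlap for 13 of the 26 genes, 7 with skin above and 6 with skin below, beside 7.12% and 10.7% of all genes tested. Without skin 11 the list had 4 higher and 0 lower calls, and without skin 22 it had 3 and 4. None of 6 HOX antisense and non-coding RNAs was called by edgeR, and DESeq2 called 1.

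**Figure D4:**
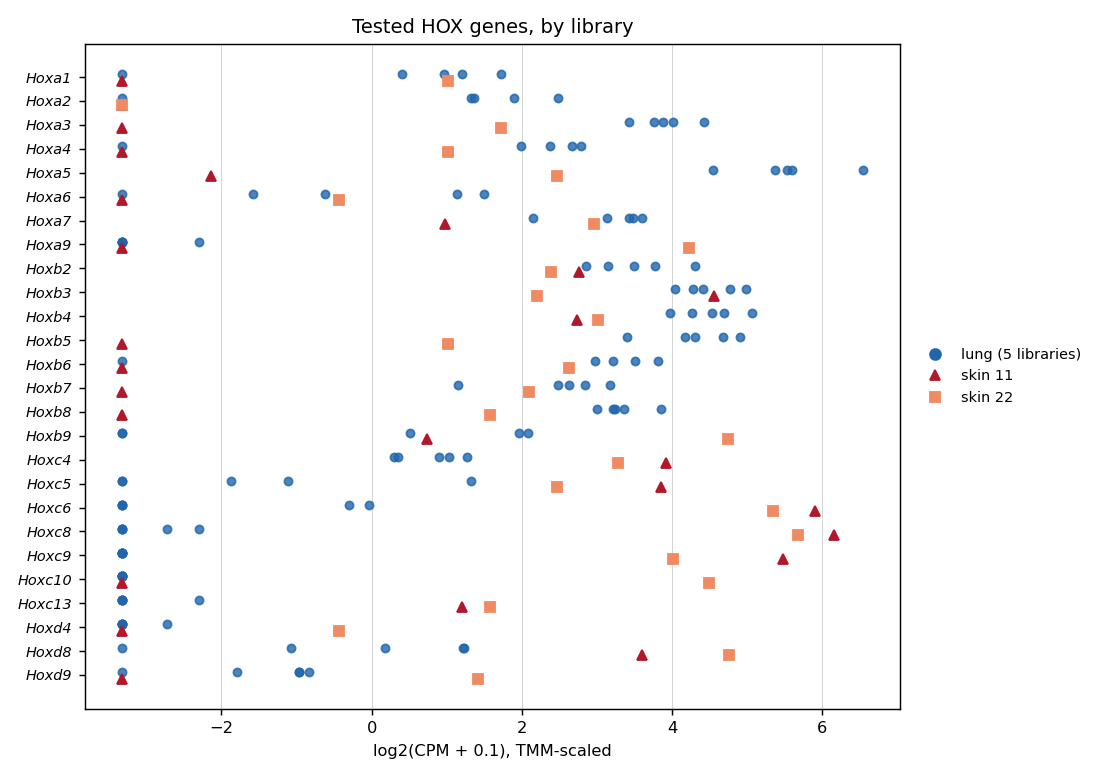
Level of the 26 tested HOX genes in log2(CPM + 0.1) on TMM-scaled totals, for the 5 lung libraries (circles), skin 11 (triangles) and skin 22 (squares). Points at the left edge are 0 CPM, and Hoxc6, Hoxc8 and Hoxc9 lie at 16.0 to 70.9 CPM in skin and at most 0.876 CPM in lung, while Hoxa5 lies lower in skin.

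Identity genes of lung mesenchyme, regulators and others, were lower in skin at 5 of 17 genes (29.4%, beside 2.07% of all genes) and higher at 0. Their median was -3.33 (-2.92 with bounds), and limma-voom with quality weights called 2 lower and 0 higher. Tcf21, a helix-loop-helix factor of visceral and lung fibroblasts (chromosome 10, 22817281-22820174), read 26.5, 17.9, 17.9, 11.9 and 22.2 CPM in lung 1, 23, 3, 4 and 5, 0.0424 CPM in skin 11 and 0 in skin 22 (-8.87 ± 1.58, adjusted p = 0.00626). Tbx4, a T-box factor of lung and hindlimb mesenchyme (chromosome 11, 85886422-85916097), read 112, 34.9, 60.9, 33.7 and 65.6 CPM in lung and 0.0847 and 1.28 CPM in skin (-7.25 ± 1.79, adjusted p = 0.0377). Gata6, a zinc finger factor of lung and other endoderm-lined organs, read 35.5 to 72.3 CPM in lung and 6.86 and 2.56 CPM in skin (-3.33 ± 0.67, adjusted p = 0.0100). Tbx2 (-7.45 ± 1.92, adjusted p = 0.0466) and the retinoic acid receptor Rarb (-6.59 ± 1.59, adjusted p = 0.0343) were the other lower genes. Skin lay below all 5 lung libraries for each of these genes. Tbx5 read 0 in both skin libraries and in lung 4, and 11.9 to 27.8 CPM in the other lung libraries, at least 120-fold lower and not called (adjusted p = 0.194). Foxf1, a target of hedgehog signals in lung mesenchyme, read 6.56 to 62.6 CPM in lung and 12.03 and 0.960 CPM in skin (-2.12 ± 0.96, adjusted p = 0.350). The growth factor Fgf10 was read in every library of both tissues (0.13 ± 0.58). The calls of Tbx4, Tbx2 and Rarb ended without any of the lung libraries (adjusted p 0.0511 to 0.0894) or without skin 11 (0.334, 0.321 and 0.161), those of Tcf21 without skin 11 (0.0792) and of Gata6 without skin 22 (0.0548), and the list had 2 calls without any 1 of the lung libraries and 1 without skin 11.

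Dermal identity genes, regulators and others, were higher at 4 of 20 genes (20%, beside 0.902%) and lower at 0, with a median of 1.21. By limma-voom with quality weights, 6 were higher and 0 lower. Zic1, a zinc finger factor of dorsal tissues (chromosome 9, 91358058-91365810), read 34.7 and 32.6 CPM in skin 11 and 22, 0.258 CPM in lung 23 and 0 in the rest (9.27 ± 1.46, adjusted p = 0.00344), and remained called without either skin library. Twist2, or Dermo1, a helix-loop-helix factor of dermis (chromosome 1, 91801461-91848028), read 6.74, 7.63, 2.93, 16.6 and 4.39 CPM in lung and 363 and 70.7 CPM in skin (4.83 ± 0.99, adjusted p = 0.0122). Lrig1, a receptor regulator that marks cells of the upper dermis and hair follicle, read 25.1 to 55.6 CPM in lung and 168 and 128 CPM in skin (2.06 ± 0.43, adjusted p = 0.0124). Crabp1, a retinoic acid carrier of dermal fibroblasts, read 0 to 16.1 CPM in lung and 138 and 115 CPM in skin (4.65 ± 1.02, adjusted p = 0.0188). Every one of these had both skin libraries above all 5 lung libraries. Of 17 hair follicle and dermal papilla genes, Crabp1 was the 1 higher, and the signals Bmp4 and Rspo3, given with their pathways, were the 2 lower. The shares of this list are 5.88% and 11.8%, beside 0.902% and 2.07% of all genes. En1 (46.8 and 32.3 CPM in skin, 0 to 3.00 CPM in lung; adjusted p = 0.134), Tbx15 (42.4 and 126 CPM in skin, 0 to 4.72 CPM in lung; adjusted p = 0.0775) and Prrx1 (683 and 422 CPM in skin, 186 to 367 CPM in lung; adjusted p = 0.0667) had skin above lung too and were not called, although Prrx1 passed without lung 23 (adjusted p = 0.0343) or skin 22 (0.0287). The calls of Twist2 (3.18, adjusted p = 0.261), Lrig1 (1.84, 0.146) and Crabp1 (4.51, 0.0715) ended without skin 11, and that of Crabp1 also without lung 3 (0.0519) or lung 5 (0.0557).

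The main fibrillar collagens Col1a1 and Col3a1 were read at high levels in both tissues and were not called. Col1a1 read 64743, 5470, 16804, 5574 and 31555 CPM in lung 1, 23, 3, 4 and 5, and 8495 and 13071 CPM in skin (-1.20 ± 0.86, adjusted p = 0.630). Col3a1 read 12761 to 57102 CPM in lung and 883 and 5502 CPM in skin (-3.36 ± 1.09, adjusted p = 0.137), with skin below every lung library. Among 10 fibrillar collagens, the minor chain Col5a3 was higher (9.75 to 27.7 CPM in lung, 101 and 422 CPM in skin; 3.91 ± 0.91, adjusted p = 0.0279) and Col11a1 was lower (98.0 to 153 CPM in lung, 16.2 and 54.1 CPM in skin; -1.82 ± 0.42, adjusted p = 0.0250). Each is 10% of the list, beside 0.902% of all genes called higher and 2.07% called lower. The Col5a3 call ended without lung 23, lung 3, lung 5 or skin 22 (2.54 without skin 22; adjusted p 0.0645 to 0.217), and the Col11a1 call without lung 3 or skin 11 (-1.20 without skin 11; 0.0542 and 0.254).

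Of 29 other collagens, 3 were higher (10.3%, beside 0.902% of all genes) and 0 lower, with a median of 0.68. Col15a1, a collagen beside basement membranes, read 1.51 to 18.3 CPM in lung and 125 and 284 CPM in skin (4.34 ± 0.69, adjusted p = 0.00196), and was called without either skin library. Col6a3 and Col18a1 rested on skin 22, with 2981 and 1514 CPM there against 375 and 47.0 CPM in skin 11; without it their log2 fold changes were 1.86 (adjusted p = 0.311) and -1.05 (0.440). The Col18a1 call also ended without lung 23, 3, 4 or 5 (adjusted p 0.0654 to 0.0880).

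Among 44 matrix glycoproteins, 6 were lower (Nid2, Sparcl1, Mfap4, Efemp1, Eln and Ltbp1) and 2 higher (Postn and Thbs2), with a median of -0.68. These are 13.6% and 4.55% of the list, beside 2.07% and 0.902% of all genes. By limma-voom with quality weights, 1 gene of the list was lower and 1 higher. Sparcl1, a relative of osteonectin, read 357 to 1075 CPM in lung and 0.297 and 7.36 CPM in skin (-7.88 ± 1.46, adjusted p = 0.00569). Mfap4, a protein of elastic fibres, read 281 to 1652 CPM in lung and 0.169 and 12.2 CPM in skin (-7.12 ± 1.46, adjusted p = 0.0121), and Nid2, which links basement membranes, 708 to 1194 CPM in lung and 160 and 71.4 CPM in skin (-3.11 ± 0.57, adjusted p = 0.00522). Thbs2, thrombospondin 2, read 214 to 895 CPM in lung and 2715 and 3293 CPM in skin (2.32 ± 0.53, adjusted p = 0.0250), a call that ended without skin 11 (adjusted p = 0.0732) or skin 22 (0.0617). Fibronectin, Fn1, was not called (8605 to 17148 CPM in lung, 2775 and 8888 CPM in skin; -1.01 ± 0.69, adjusted p = 0.611). Of 19 proteoglycans, 11 had higher values in skin and the median was 0.62, while 0 were called higher and 4 lower: Podn (-5.20 ± 0.89, adjusted p = 0.00333), Ogn (-4.88 ± 0.95, 0.00822), Srgn, which is made mainly by blood cells (-10.54 ± 2.4, 0.0243), and Lum (-2.39 ± 0.62, 0.0490). By limma-voom, 1 proteoglycan was lower and 0 higher. The 4 calls by edgeR are 21.1% of the list, beside 2.07% of all genes. All 4 ended without skin 11 (adjusted p 0.0620 to 0.277), Srgn and Lum also without skin 22 (0.0654 and 0.145) and Lum without any lung library (0.0547 to 0.0939). Without skin 11 the calls of Efemp1 (adjusted p = 0.223), Ltbp1 (0.240) and Eln, which encodes elastin (0.312), ended as well. Eln also ended without lung 3 (0.0567) or lung 5 (0.0559), and Ltbp1 without skin 22 (0.0542).

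Among 46 matrix remodelling genes, Plod2, the lysyl hydroxylase of collagen telopeptides, was lower (484 to 725 CPM in lung, 56.8 and 83.5 CPM in skin; -3.11 ± 0.51, adjusted p = 0.00244), as was the macrophage elastase Mmp12 (-4.62 ± 1.09, 0.0296), and 0 were higher. The 2 lower genes are 4.35% of the list, beside 2.07% of all genes. Plod2 ended narrowly without skin 11 (adjusted p = 0.0507), and Mmp12 without lung 4 (0.0515) or skin 22 (0.0916). Of 20 contractile genes, Mylk, the kinase that sets off smooth muscle contraction, was lower (194 to 671 CPM in lung, 4.70 and 19.8 CPM in skin; -5.06 ± 0.76, adjusted p = 0.00158) and remained called without either skin library. This 1 call is 5% of the list, beside 2.07% of all genes. Smooth muscle actin, Acta2, overlapped between the tissues, with 369 to 2238 CPM in lung and 918 and 1202 CPM in skin (0.03 ± 0.84, adjusted p = 0.998), and its sign turned without lung 23, lung 3, lung 4 or skin 22, at -0.17 to -0.03.

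Several secreted growth signals were lower in skin. The binding protein Igfbp4, which holds insulin-like growth factors (chromosome 11, 99041244-99054392), read 5293, 857, 4094, 1214 and 4224 CPM in lung 1, 23, 3, 4 and 5 and 28.9 and 38.4 CPM in skin (-6.55 ± 1.02, adjusted p = 0.00180). The ligand Igf1 read 434 to 691 CPM in lung and 25.0 and 16.3 CPM in skin (-4.70 ± 0.67, adjusted p = 0.000998), and Igfbp3 read 495 to 782 CPM in lung and 4.19 and 55.7 CPM in skin (-4.50 ± 0.91, adjusted p = 0.0110). Thus 3 genes of this system were lower together, and each was called without either skin library. The lymphatic growth factor Vegfd was lower too (465 to 747 CPM in lung, 112 and 40.6 CPM in skin; -2.90 ± 0.49, adjusted p = 0.00289). In all, 4 of 48 growth factor and receptor genes were called lower (8.33%, beside 2.07% of all genes) and 1 higher (2.08%, beside 0.902%), while 25 had higher and 23 lower values and the list's median was 0.08. The 1 higher gene was Fgf5, which was read at 36.8 CPM in skin 22 and 0 in skin 11 and had a log2 fold change of -1.41 without skin 22, its call (adjusted p = 0.0247) ending without any of the lung libraries too (0.0504 to 0.0765).

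Of 43 genes of the TGF-beta and BMP pathway, 4 ligands of the BMP side were lower (9.3%, beside 2.07% of all genes) and 2 genes higher (4.65%, beside 0.902%). By limma-voom with quality weights, 1 gene of the list was lower and 2 were higher. Bmp5 read 26.3 to 68.2 CPM in lung, 0.0424 CPM in skin 11 and 0 in skin 22 (-10.01 ± 1.52, adjusted p = 0.00160). Bmp4, a lung bud signal, read 10.4 to 43.6 CPM in lung and 0.0847 and 0.320 CPM in skin (-7.47 ± 1.27, adjusted p = 0.00435), and Gdf10 read 87.7 to 621 CPM in lung and 9.11 and 1.28 CPM in skin (-5.60 ± 1.06, adjusted p = 0.00671). Gdf6 was lower at -3.21 ± 0.80 (adjusted p = 0.0390) and lost its call without lung 1, 23, 3 or 4 or either skin library (0.0605 to 0.275). The BMP target Id4 was higher (5.67 to 11.99 CPM in lung, 71.4 and 38.1 CPM in skin; 2.49 ± 0.51, adjusted p = 0.0115). Without skin 11 the calls of Bmp4 (adjusted p = 0.0821) and Id4 (1.94, 0.235) ended.

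Among 45 Wnt pathway genes, 2 secreted modulators were lower and 0 higher. The 2 are 4.44% of the list, near the 2.07% of all genes. Rspo3, which boosts Wnt signals, read 130 to 397 CPM in lung and 4.87 and 6.40 CPM in skin (-5.48 ± 0.67, adjusted p = 0.000367). The inhibitor Sfrp1 read 1052 to 3677 CPM in lung and 38.3 and 130 CPM in skin (-4.79 ± 0.98, adjusted p = 0.0118, but 0.144 without skin 11). Aldh1a2, the enzyme that makes retinoic acid, was lower as well. It read 146 to 188 CPM in lung and 2.54 and 1.92 CPM in skin (-6.11 ± 0.95, adjusted p = 0.00175). Of 36 hedgehog, retinoid and Notch genes, 4 were lower, among them Dhrs3 (-3.08 ± 0.75, adjusted p = 0.0360) and Rarb, and 1, Crabp1, was higher. These are 11.1% and 2.78% of the list, beside 2.07% and 0.902% of all genes. Dhrs3 lost its call without lung 1, 3 or 5 or skin 11 (adjusted p 0.0590 to 0.325).

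Complement and some cytokine genes were lower beside the leukocyte markers, whose sums differ as given above, and the part of leukocytes in these values was not tested. Of 19 complement genes, 10 were lower (52.6%, beside 2.07% of all genes) and 0 higher (median -4.65). C1qa, a chain of the recognition molecule C1q that macrophages make, read 72.9 to 530 CPM in lung and 0.127 and 1.28 CPM in skin (-9.55 ± 1.59, adjusted p = 0.00286). C4b read 583 to 1621 CPM in lung and 56.7 and 16.0 CPM in skin (-4.65 ± 0.90, adjusted p = 0.00762). C3 was read in all, with 893 to 2794 CPM in lung, 826 CPM in skin 11 and 11.5 CPM in skin 22, and was not called (adjusted p = 0.411). The count of lower complement genes was 5 without skin 11, where C1qa had an adjusted p of 0.0606, 8 without skin 22 and 0 by limma-voom.

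Of 41 cytokine and adhesion genes known as NF-kappaB targets, 4 were lower (9.76%, beside 2.07% of all genes) and 2 higher (4.88%, beside 0.902%). Ccl9 (-6.25 ± 1.02, adjusted p = 0.00244), Icam1, Il33 (-5.31 ± 1.29, 0.0359) and Cxcl13, with 1.58 to 44.7 CPM in lung and 0 counts in skin (at least 244-fold lower, 0.0279), were lower. Ccl8, a monocyte chemokine, read 1.70 to 18.1 CPM in lung and 111 and 65.6 CPM in skin (3.12 ± 0.69, adjusted p = 0.0203, but 2.65 and 0.192 without skin 11). Cxcl5, a neutrophil chemokine, read 70.1 to 181 CPM in lung, 3230 CPM in skin 11 and 38.1 CPM in skin 22, and its log2 fold change of 3.84 ± 0.89 (adjusted p = 0.0279) became -1.61 without skin 11; the call also ended without lung 1, 3, 4 or 5 (0.0608 to 0.0730). Il33 lost its call without lung 3, lung 5 or skin 11 (adjusted p 0.0657 to 0.0717), and Cxcl13 without lung 23 (0.05), lung 3 (0.0547), skin 11 (0.286) or skin 22 (0.0530). Of 38 interferon-stimulated genes, 34 had lower values in skin (median -1.58), and 1 was called (2.63%, beside 2.07% of all genes), the membrane tether Bst2 (-2.70 ± 0.49, adjusted p = 0.00508, but 0.0889 without skin 11). MHC class II genes were called at 0 of 8, with sums of 46.46 to 67.51 CPM in lung and 1.033 and 16.52 CPM in skin.

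Of 27 glycolysis and hypoxia genes, 24 had lower values in skin (median -1.17) and 2 were called lower (7.41%, beside 2.07% of all genes), the glycolytic enzymes Pfkl (250 to 406 CPM in lung, 95.9 and 109 CPM in skin; -1.72 ± 0.31, adjusted p = 0.00434) and Gpi1 (-1.21 ± 0.27, 0.0231). Of 24 cholesterol synthesis genes, 20 had higher values (median 0.66) and 2 were called higher (8.33%, beside 0.902%), Lss, lanosterol synthase (10.6 to 31.1 CPM in lung, 165 and 64.0 CPM in skin; 2.17 ± 0.43, adjusted p = 0.00969), and Hsd17b7 (2.60 ± 0.54, 0.0128). Without skin 11 the calls of Lss (1.31, adjusted p = 0.400), Hsd17b7 (1.65, 0.391), Pfkl (0.0626) and Gpi1 (0.0715) ended, the cholesterol median was 0.04, and Gpi1 also ended without lung 3 (0.0542) or skin 22 (0.106). Of 40 proliferation genes 0 were called (median -0.24), and of the p53 and senescence genes 1 was called lower (4.76%, beside 2.07% of all genes). Of 21 p53 and senescence genes, the cell cycle inhibitor Cdkn2c was lower (27.0 to 37.3 CPM in lung, 10.2 and 8.32 CPM in skin; -1.81 ± 0.44, adjusted p = 0.0358), a call that ended without lung 1, 23, 3 or 5 or either skin library (0.0521 to 0.172). Thy1, a surface marker of fibroblasts, was higher (81.5 to 269 CPM in lung, 553 and 1115 CPM in skin; 2.29 ± 0.42, adjusted p = 0.00508, but 0.0570 without skin 22).

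The same tissues were also compared in the libraries labelled Rel-null, 3 from skin and 4 from lung, which share no library with the wild-type comparison but enter the same fit and its estimate of spread. Rel read 0.0651 to 4.06 CPM in the lung libraries labelled Rel-null, a range that also holds wild-type lung 4 at 1.10 CPM. It read 0.0349 CPM in skin 18, and 9.42 and 9.47 CPM in skin 19 and 20, which is close to wild-type skin. Rel RNA thus does not bear out the label for 19 and 20, nor does it part the lung labels cleanly. The genotype itself was not tested. That comparison called 299 genes higher (1.82%) and 530 lower (3.23%) in skin. Of the 148 genes higher in wild-type skin, 148 had the same sign there (100%) and 99 were also called, which is 66.9% of the wild-type and 33.1% of the Rel-null calls. Of the 339 lower, 327 had the same sign (96.5%) and 261 were also called, 77% and 49.2%. Over all genes tested, 65.2% had the same sign. Prl2c3 (13.07), Hoxc8 (7.85), Zic1 (11.98), Twist2 (7.54), Tcf21 (-11.43), Tbx4 (-5.43), Igfbp4 (-5.81), Tgm2 (-6.04) and Mpeg1 (-8.40) were called in both. Rarb (1.06) and Lum (0.32) had the opposite sign among the libraries labelled Rel-null, and Col15a1 (0.84), Mfap4 (-2.02) and Igfbp3 (-1.21) were not called there.

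Whether the tissue difference itself differed with the genotype label was tested as an interaction in the same fit. By edgeR 0 genes passed (smallest adjusted p 0.101), with 766 genes at an unadjusted p under 0.05, while DESeq2 called 100 and limma-voom 174. The count was 2 without skin 11, 370 without skin 22 and 31 without skin 19 and 20 of the Rel-null label. Clu, which encodes the secreted chaperone clusterin, was the 1 gene called in opposite directions: 614, 274, 700, 287 and 340 CPM in wild-type lung 1, 23, 3, 4 and 5 and 64.8 and 8.96 CPM in wild-type skin (-3.56 ± 0.81, adjusted p = 0.0245), but 391 ± 275 CPM (SD, n = 4) in lung and 2808 ± 756 CPM (n = 3) in skin labelled Rel-null (2.84 ± 0.61, adjusted p = 0.0112). Its interaction was -6.41 ± 1.05 (adjusted p = 0.101), and its wild-type call ended without skin 22 (-2.77, adjusted p = 0.0776). Clu was singled out after its values were seen.

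**Figure D5:**
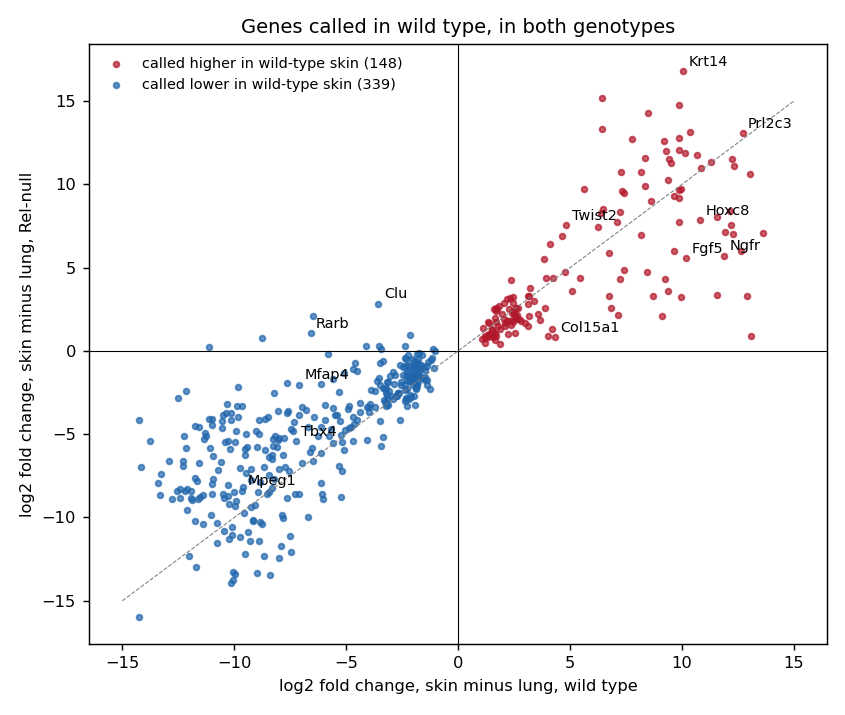
Log2 fold change (skin minus lung) in libraries labelled Rel-null against that in wild type, for the 148 higher (red) and 339 lower (blue) wild-type calls, with the dashed line where both are equal. All 148 higher calls and 327 of the 339 lower calls lie on the same side of 0 in both, and Clu lies on opposite sides.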

How the data were processed

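The authors deposited 1 table of raw read counts per gene for 14 libraries, with 48795 gene identifiers, of which 48435 matched names and coordinates of GENCODE M21 on GRCm38. Per the submitters' processing notes, the tools were STAR 2.4.2a, Trimmomatic 0.33 and FastQC 0.11.2 and the build GRCm38, with no role or order stated. How reads were counted, with which annotation and whether by strand, is not given in the sources used here, so overlapping and antisense genes cannot be told apart. Libraries were grouped by the labels. All 14 were fitted with edgeR 4.0.16 in R 4.3.3 (TMM factors, filterByExpr with a minimum count of 10 and a minimum total of 15, quasi-likelihood fit, 4 group means), which left 16408 genes, and wild-type skin was set against wild-type lung with Benjamini-Hochberg adjustment over all of them at a threshold of 0.05. Errors are the fold change over the root of the F statistic. The code was tested on simulated counts. Where a group had 0 counts, the fold is a bound against 3 counts over that group, and intervals and floors cover counting error only. No pair of wild-type libraries of 1 tissue agreed within sampling noise. Alternatives used DESeq2 1.42.0, limma 3.58.1, other size factors, other filters and fewer libraries.

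The text names, in each direction, the 12 protein-coding or lincRNA genes with the smallest p among those past the threshold, with a mean of at least 10 CPM in the higher group and ranges that do not overlap; up to 4 called genes each way per list, or the 2 with the highest mean where none was called; and a set of genes always given. Other genes were named after their values were seen, and a few genes that the rule gives are not reported here. The members and lists were chosen with earlier results of these data known.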

Additional observations from a re-analysis of the deposited data

Results flagged for a closer look

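In 126 sets of the 5 wild-type lung values (named genes and marker sums), the highest or lowest library stood apart by Dixon's criterion in 8, where chance alone gives about 1 in 20. In lung 1 these were Xist, at 77.6 CPM on TMM-scaled totals, the lymphatic receptor Flt4, at 59.5 CPM, Col6a3, at 240 CPM (240.15), and the endothelial marker sum, at 282.5 CPM, each the highest of the 5. In lung 4 the lanosterol synthase gene Lss was lowest, at 10.6 CPM. Itgax was highest in lung 5, at 182 CPM. The muscle myosin gene Myh1 was highest in lung 3, at 1.10 CPM. The summed hair follicle and dermal papilla genes were highest in lung 23, at 553.3 CPM.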

How the results depend on the processing

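Against 148 higher and 339 lower genes, no low-count filter gave 260 and 522, DESeq2 gave 328 and 905, and leaving out the 4 libraries with most genes at 0 gave 275 and 583. Without the 2 Xist-positive libraries 845 were lower. Leaving out 1 wild-type library gave 74 to 204 higher and 171 to 846 lower. Other size factors, a filter of 1 CPM in 2 libraries, limma-voom and the 7 wild-type libraries alone stayed within 1.5 times of both counts. A like count did not mean the same genes, as limma-voom kept 90 of the 148 and 57 of the 339. Of the named genes, 69 lost their call by limma-voom, 3 gained one and 71 stayed called or uncalled.

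For the difference between genotype labels, 0 genes became 31 with no filter, 100 by DESeq2, 174 by limma-voom, 365 without the Xist-positive libraries, 31 without the 4 libraries with most genes at 0, 31 without Rel-null skin 19 and 20, and 0 to 370 when 1 wild-type library was left out. The 99 higher calls shared with the libraries labelled Rel-null became 169 with no filter, 192 by DESeq2, 161 by limma-voom and 189 without the libraries with most genes at 0, and 61 to 123 with 1 library left out. The 261 shared lower calls became 394, 619, 137 and 443 in the same order, and 134 to 328. The causes were not tested.

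Signs turned for a few named genes. Leaving out 1 library moved the log2 fold change from -1.05 to 3.95 for Col18a1, -1.41 to 11.49 for Fgf5, -1.61 to 4.82 for Cxcl5, -0.69 to 0.0027 for Rrm1, -1.35 to 13.47 for Myh3, -3.20 to 13.47 for Ngfr, -2.14 to 13.53 for Cdh19, -0.32 to 0.25 for Rel, -11.37 to 12.61 for Xist and -0.17 to 0.55 for Acta2. Without the Xist-positive libraries it was -0.85 for Col18a1, -1.61 for Fgf5, 0.11 for Flt4, -1.54 for Myh3, -3.49 for Ngfr, -2.37 for Cdh19, 0.0102 for Rel and -3.16 for Xist. Without the libraries with most genes at 0 it was -1.58 for Cxcl5 and -0.0077 for Acta2. Rel was 0.0612 with RLE factors and by DESeq2, 0.0666 with upper-quartile factors, 0.0334 with the 1 CPM filter and 0.0158 in the wild-type libraries alone.

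Skin rests on 2 libraries, of which skin 22 has 2663437 counts and skin 11 has many genes at 0, so low genes in either are imprecise. The genes at 0 in skin 11 include some well read in skin 22, such as Edil3 at 534 CPM and Ngfr at 394 CPM there. No paired analysis was possible because the groups compared share no replicate number.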
